A study of Homo sapiens with 4 samples.

Results

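LM2 and BM1 are derivatives of MDA-MB-231, an established line of triple-negative human breast cancer cells, selected for metastasis to lung (LM2) and to bone (BM1). The comparison described here set LM2 cells stably expressing an shRNA against hnRNPM beside BM1 cells stably expressing the same kind of shRNA, and asked which genes separated the derivatives while hnRNPM was depleted. It used 2 of the 4 libraries of the study. The other 2 came from LM2 and BM1 cells carrying a non-specific shRNA and served as the reference for what separated the lines without depletion. Both shRNAs were delivered by lentivirus, and all cells were grown in serum-containing DMEM. The RNA was sequenced as stranded, paired-end, polyA-selected libraries. There was 1 library for each line and shRNA, so each difference had no replicate check and no p-value is given. The shRNA sequences were not given in the sources used here.

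Levels were in FPKM, which are fragments scaled for the length of the gene model and the size of the library. A difference is the log2(FPKM + 1) value of LM2 minus that of BM1, so a positive difference means higher in LM2. On this scale the change of a gene with a low level is understated. Genes with a mean of at least 1 FPKM over both knockdown libraries were compared, which kept 13767 of the 20329 genes with a single entry, and a gene was counted as different when the lines stood at least 2-fold apart, a difference of 1 or more. The genes in the groups below were picked with earlier results of these libraries known, so their counts describe these libraries and are not independent evidence. Genes outside the naming rule given with the methods were picked after their values were seen.

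hnRNPM is an abundant nuclear protein that binds GU-rich RNA and takes part in the choice of alternative exons. In breast cancer cells it is known for favouring skipping of the variable exons of CD44, where it competes with the epithelial splicing regulators ESRP1 and ESRP2, and for its part in the epithelial-mesenchymal transition. That transition is a shift from cells held together by cadherins and keratins to migratory cells that make fibronectin, collagens and matrix-degrading enzymes. Gene-level FPKM cannot show exon choice, so the values below concern gene levels only.

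HNRNPM itself read 20.3 FPKM in LM2 knockdown cells and 28.4 in BM1 knockdown cells, against 132 and 171 in the respective controls. The knockdown libraries thus held 15.4% of the control level in LM2 and 16.6% in BM1, and the depleted lines differed by -0.46. The HNRNPM locus overlaps ELAVL1 on the other strand. Of the 8 markers of MDA-MB-231-like cells, SPARC was low in BM1 (1.31 FPKM), EGFR was at least 2-fold higher in BM1, and the other 6 stood within 2-fold between the knockdown libraries. CD44, the hyaluronan receptor, read 217 FPKM in LM2 and 157 in BM1, and the mesenchymal filament gene VIM read 1795 and 1160. ESR1, PGR and FOXA1, the defining genes of hormone-dependent breast cells, were not among the genes of the table. Of the leukocyte markers, PTPRC and CD3E were not in the table either, CD68 read 4.46 FPKM in BM1 and 2.04 in LM2, and CD14 read 1.47 and 7.09. The 8 leukocyte markers together summed to 6.20 FPKM in BM1 and 9.23 in LM2 knockdown cells. None of 6 endothelial markers was among the genes compared. ESRP1 stayed near 0 in both knockdown libraries, at 0.0242 FPKM in BM1 and 0.0202 in LM2, and ESRP2 read 2.0 and 0.56.

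The 4 genes used as identity markers of the lines kept them apart when hnRNPM was depleted. SPARC, a secreted glycoprotein that binds collagen, read 651 FPKM in LM2 knockdown cells and 1.31 in BM1 knockdown cells, with 248 and 2.13 in the controls. It lies on chromosome 5 (151040657 to 151066726, in the coordinates of the deposited table), and its difference of 8.14 was the largest of all genes compared. FKBP10, a prolyl isomerase of the endoplasmic reticulum that helps collagen to fold, read 12.5 FPKM in LM2 and 0.182 in BM1, with 29.6 and 0.382 in the controls. Both LM2 libraries were high and both BM1 libraries were low for these genes, giving FKBP10 (chromosome 17, 39968932 to 39979469) a difference of 3.51. CCL2, a chemokine that attracts monocytes, showed the reverse order, with 92.0 FPKM in BM1 and 0.756 in LM2 knockdown cells, and 86.3 and 0.127 in the controls. Its difference was -5.73 (chromosome 17, 32582237 to 32584222). KRT19, a keratin of simple epithelia, read 118 FPKM in BM1 and 24.8 in LM2 after depletion, and 225 and 20.1 in the controls. The KRT19 difference of -2.20 (chromosome 17, 39679869 to 39684560) was smaller than the -3.42 between the controls, while that of SPARC was larger than its control value of 6.31. Whether either of these shifts exceeds the spread between libraries was not tested.

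**Figure D1:**
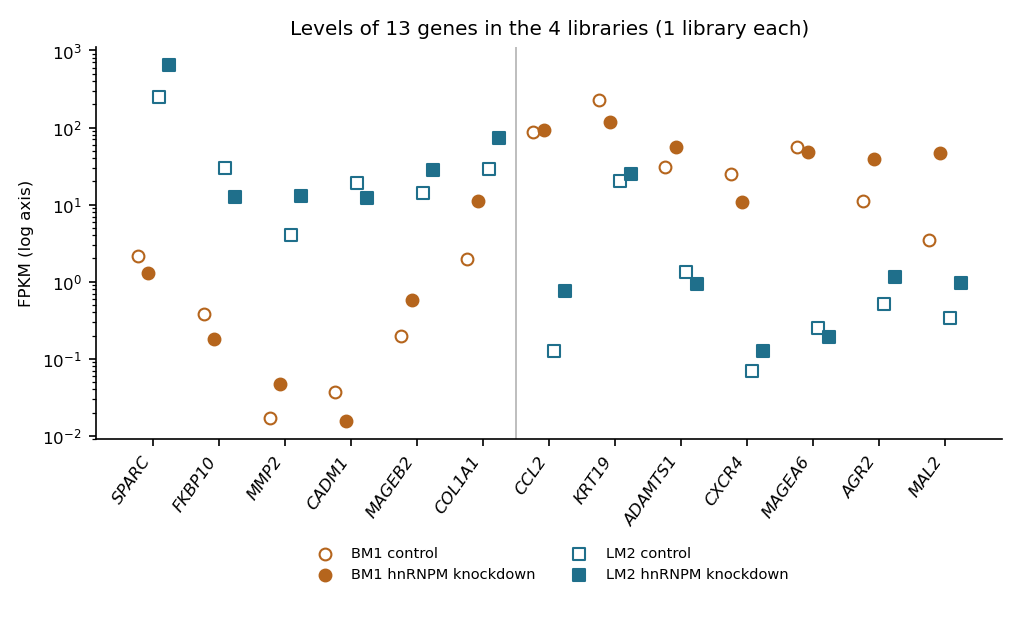
FPKM on a log axis of the 4 identity markers (SPARC, FKBP10, CCL2 and KRT19) and 9 further genes described below in each of the 4 libraries, 1 point per library, with squares for LM2, circles for BM1 and filled symbols for knockdown. Genes left of the vertical line are higher in LM2 and those right of it in BM1: SPARC and FKBP10 are high in both LM2 libraries, CCL2 and KRT19 in both BM1 libraries, with SPARC at 651 FPKM in LM2 knockdown cells and 1.31 in BM1 knockdown cells.

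The promoter of SPARC and that of AGR2, 1 of the 10 genes highest in BM1, are shown because both genes were high in 1 line and low in the other with and without depletion. The windows run from 250 bases before to 50 bases after the start in RefSeq (GRCh38.p14, a later build than that of the table), 5′ to 3′ along the gene, with each CG dinucleotide in capitals. The SPARC window is chr5:151686866-151687165, minus strand, and the AGR2 window is chr7:16804950-16805249, minus strand.
SPARC: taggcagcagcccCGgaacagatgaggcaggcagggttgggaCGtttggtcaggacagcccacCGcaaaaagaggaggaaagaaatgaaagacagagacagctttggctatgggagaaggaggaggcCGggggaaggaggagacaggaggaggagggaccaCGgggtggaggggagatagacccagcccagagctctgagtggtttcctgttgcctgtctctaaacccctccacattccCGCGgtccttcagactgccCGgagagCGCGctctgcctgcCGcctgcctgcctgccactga
AGR2: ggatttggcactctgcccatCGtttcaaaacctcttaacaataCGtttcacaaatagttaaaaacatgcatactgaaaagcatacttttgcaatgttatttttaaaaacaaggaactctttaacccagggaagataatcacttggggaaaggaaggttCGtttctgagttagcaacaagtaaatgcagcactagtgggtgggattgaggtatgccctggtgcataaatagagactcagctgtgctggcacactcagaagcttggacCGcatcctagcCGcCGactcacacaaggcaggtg
They held 11 and 6 CG dinucleotides. Among the 9025 compared genes with such a window the median was 26. Windows with fewer than 10 CG dinucleotides made up 10.2% of all compared genes, 19.2% of the 395 matched genes at least 2-fold higher in LM2 and 22.7% of the 419 at least 2-fold higher in BM1. Among the 8 and 12 matched genes at least 8-fold higher in LM2 and in BM1 the median was 8 in each set. A TATAAA motif on either strand was found in 9.11% of the LM2-high windows, 8.59% of the BM1-high windows and 5.11% of all windows. An AP-1 motif (TGANTCA, on either strand) was found in 7.85%, 5.73% and 4.49%, respectively. A match describes letters in the window and not a bound site.

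Across all genes, 619 were at least 2-fold higher in LM2 knockdown cells (4.5% of those compared) and 654 at least 2-fold higher in BM1 knockdown cells (4.75%). Together these 1273 genes made up 9.25% of the genes compared. At least 4-fold differences were found for 92 genes higher in LM2 and 98 higher in BM1, and at least 16-fold differences for 4 and 9. The median difference was -0.06, and the middle 90% of genes lay between -0.98 and 0.96. The count was not confined to weakly expressed genes. The share past 2-fold was 9.32% at a mean of 1 to 3 FPKM and 8.50% at 100 FPKM or more, where 42 genes were higher in LM2 and 14 in BM1. Long intergenic RNAs were past 2-fold in 20.1% of 303 genes, with 42 higher in BM1 and 19 in LM2, against 9.21% of the 11259 protein-coding genes.

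**Figure D2:**
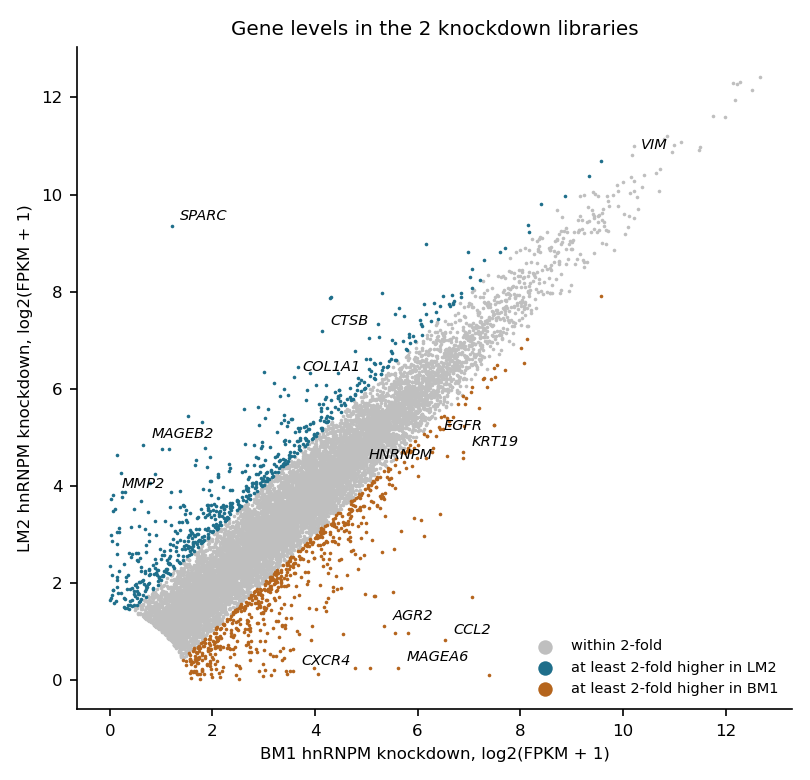
Level in BM1 knockdown cells (x axis) against LM2 knockdown cells (y axis), both as log2(FPKM + 1), 1 point per compared gene; genes at least 2-fold apart on the log2(FPKM + 1) scale are coloured by the line in which they are higher. The 619 genes higher in LM2 and the 654 higher in BM1 lie on both sides of a dense diagonal, with SPARC and CCL2 far from it.

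The 10 genes highest in LM2 were led by SPARC and included MMP2, MAGEB2, CADM1 and ATP6V1C2. MMP2, the gelatinase that cleaves type IV collagen, read 13.1 FPKM in LM2 knockdown cells and 0.0469 in BM1 knockdown cells, with 4.07 and 0.0171 in the controls. MAGEB2, a cancer-testis gene of the X chromosome, read 27.7 and 0.572 FPKM, with 14.2 and 0.199 in the controls. CADM1, an immunoglobulin-type cell adhesion molecule, read 12.1 and 0.0153 FPKM, with 18.8 and 0.0369 in the controls. These 3 genes were low in both BM1 libraries and high in both LM2 libraries, with knockdown differences of 3.75, 4.19 and 3.69. The other 5 of the 10 were short or non-coding entries. SNORD36A (4.50) lies inside RPL7A, AC011933.1 (3.90) inside GRB2 and XXbac-BPG300A18.13 (3.62) inside PBX2 on the same strand, and RP4-536B24.2 (4.05) lies antisense to SLC7A5. How the counting divided such fragments, and whether it used the strand, was not given in the sources used here, so these values are uncertain. RP11-150O12.6, a sense intronic RNA of chromosome 8 with no overlapping entry in the table, differed by 3.74.

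At the other end, the 10 genes highest in BM1 were led by CTD-2354A18.1, an RNA gene of chromosome 18 (70992176 to 71017113), at 166 FPKM in BM1 knockdown cells and 0.0708 in LM2 knockdown cells. Its controls read 126 and 0.062 FPKM, and its difference was -7.28. CCL2 came next, followed by MAGEA6, a cancer-testis gene at 48.3 and 0.189 FPKM with a difference of -5.37. MAGEA6 and MAGEA3 (9.94 and 0.0878 FPKM) are near-identical copies, so the division of fragments between them is uncertain, although both were low in both LM2 libraries. ADAMTS1, a secreted protease that cuts proteoglycans, read 55.3 FPKM in BM1 and 0.944 in LM2 knockdown cells, with 30.8 and 1.34 in the controls. COX7B2, a testis-expressed subunit of cytochrome oxidase, read 32.7 and 0.178 FPKM, with 50.2 and 0.222 in the controls. Both were high in BM1 with and without depletion. MAL2, a membrane protein of apical transport in epithelial cells that overlaps RP11-4K16.2 on the other strand, read 46.1 FPKM in BM1 knockdown cells against 3.44 in BM1 controls, and 0.949 and 0.333 in LM2. AGR2, a disulfide isomerase needed for mucin production, read 39.6 FPKM in BM1 knockdown cells against 11.3 in its controls, and 1.14 and 0.518 in LM2. For MAL2 and AGR2 the highest of the 4 libraries was BM1 with hnRNPM depleted, and their differences of -4.59 and -4.24 were larger than the -1.74 and -3.02 between controls. FAM49A (-3.95), RP11-149I23.3 (-5.34, antisense to LIPA) and AC034102.1 (-4.54, inside RAB5B) completed the 10.

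Genes of the mesenchymal state stood mostly on the LM2 side. Of 20 compared markers, 11 were at least 2-fold higher in LM2 and 1 in BM1, with a median difference of 1.14 against -0.06 for all genes. Their share past 2-fold was 60%, against 9.25% of all genes. The control pair gave 12 and 1 for the same markers, with a median of 1.22, so the lean to LM2 was also present without depletion. In both pairs alike, 10 were higher in LM2 and 1 in BM1. The knockdown-pair median was 1.98 at a mean of at least 5 FPKM and 2.14 with overlapping genes left out. FN1, the gene of fibronectin, read 250 FPKM in LM2 knockdown cells and 38.7 in BM1 knockdown cells, with 201 and 24.4 in the controls, a difference of 2.66. COL1A1, a chain of type I collagen, read 74.2 and 11.1 FPKM, with 29.2 and 1.94 in the controls, a difference of 2.64. Both genes had their highest level in LM2 with hnRNPM depleted, and BM1 knockdown cells stood above BM1 controls. The exception was CDH11, a cadherin of mesenchymal and bone-forming cells, at 10.6 FPKM in BM1 and 1.42 in LM2 knockdown cells (-2.26), with 14.5 and 1.24 in the controls. VIM was 1795 FPKM in LM2 and 1160 in BM1 after depletion, a difference of 0.63 that did not reach 2-fold, while in the controls BM1 was the higher line, with 2354 against 1575. Of the 6 compared transcription factors of the transition, ZEB2 (1.09) and SOX9 (1.07) were past 2-fold, and ZEB1 (0.68) and SNAI2 (0.63) were not. In all, 5 were higher in LM2 and 1 in BM1, the last at -0.60, and the median was 0.66. Their share past 2-fold was 33.3%, against 9.25% of all genes, over few members. SNAI1, under the minimum mean level, read 1.6 FPKM in LM2 and 0.31 in BM1, and TWIST1 was not in the table. The 7 fibroblast markers summed to 79.3 FPKM in LM2 and 15.2 in BM1 knockdown cells, with COL1A1, which belongs to both groups, as the main term, and their part in the result was not tested. PDGFRB read 2.93 FPKM in LM2 and 3.24 in BM1 knockdown cells, LUM read 1.61 and 0.465, and DCN was not in the table. In bulk RNA a smaller number of cells of a type and less RNA per cell cannot be told apart.

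Collagen chains lay on the same side: 7 of 16 compared chains were at least 2-fold higher in LM2 and 0 in BM1, with a median of 0.91. Their share past 2-fold was 43.75%, against 9.25% of all genes. COL1A1, COL5A1, COL6A1 and COL6A2, 4 of the 7, are also counted among the mesenchymal markers. Without the filter on low values the median was 0.52, at a mean of at least 5 FPKM it was 1.54, and with overlapping genes left out 4 chains remained past 2-fold. The control pair gave 9 and 0 for the same chains, with a median of 1.21. COL5A1, a chain that sets fibril diameter, read 56.2 FPKM in LM2 and 8.94 in BM1 knockdown cells (2.53), with 22.2 and 6.85 in the controls. COL6A2, of the microfibrillar type VI collagen, read 37.3 and 6.5 FPKM (2.35), with 65.3 and 27.2 in the controls. COL4A1, of basement membrane collagen, read 27.9 and 5.24 FPKM (2.21), with 15.5 and 4.11 in the controls. LM2 was the higher line in both pairs for all 3, whereas COL6A2 was lower with depletion in both lines and COL5A1 and COL4A1 were higher. COL4A2 (1.94), COL6A1 (1.98) and COL18A1 (1.54), members beyond the naming rule whose values were seen before they were picked, made up the 7 together with COL1A1. The lowest chain was COL16A1, at -0.62.

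Several of these chains are neighbours. COL4A1 and COL4A2 are transcribed away from each other from start sites 127 bases apart, and their promoter windows share 226 bases. They are shown because both genes were higher in LM2 and their starts lie in 1 stretch of DNA. Their entries in the table overlap others on the opposite strand. The COL4A1 window is chr13:110307108-110307407, minus strand, and the COL4A2 window is chr13:110307034-110307333, plus strand, in GRCh38.p14 from RefSeq, with CG dinucleotides in capitals.
COL4A1: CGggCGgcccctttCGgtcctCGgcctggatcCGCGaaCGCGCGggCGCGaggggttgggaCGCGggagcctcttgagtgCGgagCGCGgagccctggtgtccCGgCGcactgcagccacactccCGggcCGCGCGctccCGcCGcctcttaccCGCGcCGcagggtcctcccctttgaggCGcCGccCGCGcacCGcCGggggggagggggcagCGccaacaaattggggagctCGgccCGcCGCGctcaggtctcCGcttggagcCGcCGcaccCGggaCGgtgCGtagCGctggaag
COL4A2: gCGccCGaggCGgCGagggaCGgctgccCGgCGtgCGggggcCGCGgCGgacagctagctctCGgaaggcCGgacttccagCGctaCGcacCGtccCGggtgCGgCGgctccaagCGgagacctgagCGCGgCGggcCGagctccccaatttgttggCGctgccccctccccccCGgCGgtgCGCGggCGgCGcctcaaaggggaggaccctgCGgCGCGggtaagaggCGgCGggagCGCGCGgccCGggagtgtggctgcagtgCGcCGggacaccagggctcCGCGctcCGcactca
Each window held 45 CG dinucleotides, in contrast to the 11 of SPARC. Both also held the letters CCAAT on 1 strand or the other, which was the same site in their shared bases read along each gene. These letters were found in 37.1% of all windows. On chromosome 21, COL18A1, SLC19A1, PCBP3, COL6A1 and COL6A2 formed an unbroken run of 5 compared genes at least 2-fold higher in LM2 (46825052 to 47552763).

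Enzymes that modify and fold collagen did not follow the chains as a group. Of 24 compared, 5 were at least 2-fold higher in LM2 and 1 in BM1 (25% against 9.25% of all genes), with a median of 0.05. FKBP10 led, followed by P3H4 (1.71), a partner of the prolyl and lysyl hydroxylases, TMEM38B (1.43, or 0.95 with the median of its chromosome, 9, subtracted), an ion channel of the endoplasmic reticulum, and LOXL2 (1.38), a collagen cross-linking oxidase. LOXL2 read 170 FPKM in LM2 and 64.9 in BM1 knockdown cells, against 130 and 111 in the controls. SERPINH1, the collagen chaperone HSP47, lay just inside the 2-fold rule at 1.01 and just outside it after quantile normalization. PLOD2, a lysyl hydroxylase named here after its values were seen, was the exception, with 178 FPKM in BM1 and 84.4 in LM2 knockdown cells (-1.07) and 21 and 37.8 in the controls.

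Basement membrane and adhesion genes also included members far apart. Of 12 compared laminins and related genes, 4 were at least 2-fold higher in LM2 and 0 in BM1, among them LAMA4 (1.70), LAMC1 (1.5) and LAMB1 (1.02). Integrins split 1 and 1 among 13. Past 2-fold were 33.3% of the laminins and related genes and 15.4% of the integrins, against 9.25% of all genes. With so few members these shares say little about either family. ITGB4, the partner of ITGA6 in hemidesmosomes, read 78.8 FPKM in LM2 and 13.9 in BM1 knockdown cells (2.42), with 68.5 and 18.7 in the controls. ITGB2, the leukocyte integrin subunit, read 18.2 FPKM in BM1 and 4.58 in LM2 (-1.78), with 35.3 and 6.39 in the controls. Each was highest in the same line with and without depletion. Among 21 other adhesion molecules, 4 were higher in LM2 and 1 in BM1, a share of 23.8% against 9.25% of all genes. CADM1 and L1CAM, an adhesion molecule of neurons and invasive tumours (46.9 and 7.45 FPKM, 2.5), were the highest in LM2. CDH11 was the 1 in BM1.

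**Figure D3:**
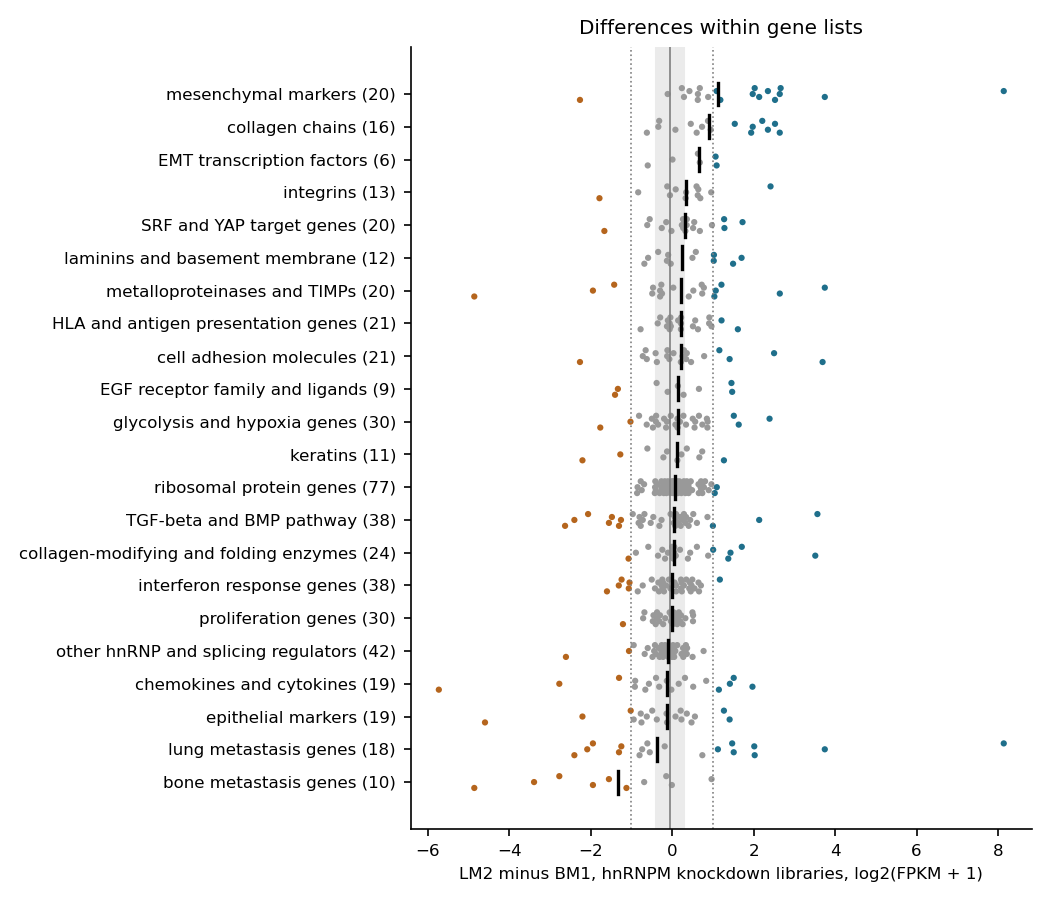
Difference on the log2(FPKM + 1) scale between LM2 and BM1 knockdown cells (x axis) for the compared members of gene groups (rows), 1 point per gene, with the group median as a bar, the median of all genes as a line with their middle 50% shaded, and the 2-fold rule dotted. Mesenchymal markers (median 1.14) and collagen chains (0.91) lie to the LM2 side and bone metastasis genes (-1.34) to the BM1 side.

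Genes linked to bone metastasis lay on the BM1 side. Most of these genes became known from bone-homing cells selected out of MDA-MB-231, so their direction in BM1 is not independent evidence. Of 10 compared, 6 were at least 2-fold higher in BM1 and 0 in LM2, with a median of -1.34 (4 and 0, and -0.96, in the control pair). Their share past 2-fold in the knockdown pair was 60%, against 9.25% of all genes. With size factors 1 member, SRGN, crossed to 2-fold higher in LM2. PTHLH, a hormone-like factor that drives bone breakdown, was left out by its mean of 0.984 FPKM, and it read 1.76 FPKM in LM2 and 0.209 in BM1 knockdown cells (1.19), so without the filter 1 member is higher in LM2. CXCR4, the receptor through which the chemokine CXCL12 attracts cells to marrow, read 10.8 FPKM in BM1 and 0.127 in LM2 knockdown cells (-3.39), with 24.7 and 0.0698 in the controls. IL11, a cytokine that favours osteoclasts, read 65.6 FPKM in BM1 and 8.76 in LM2 (-2.77), with 108 and 54.1 in the controls. CXCR4 was near 0 in both LM2 libraries, whereas IL11 was lowest in LM2 with hnRNPM depleted. MMP1, interstitial collagenase, read 11.9 FPKM in BM1 and 2.34 in LM2 (-1.94), with 355 and 33.3 in the controls, so it was higher in BM1 in both pairs at very different levels. ADAMTS1 is described above. CTGF (114 FPKM in BM1 and 103 in LM2, -0.14), a growth factor of the same signature named here after its values were seen, did not separate the depleted lines, and its controls read 231 and 84.3.

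Genes linked to lung metastasis, many of them first listed in lung-homing MDA-MB-231 cells and so not independent of LM2, were divided. Of 18 compared, 7 were at least 2-fold higher in LM2 and 5 in BM1, with a median of -0.37, while the control pair gave 12 and 2 with a median of 1.77. Their share past 2-fold in the knockdown pair was 66.7%, against 9.25% of all genes. SPARC and MMP2 were far higher in LM2. LTBP1, which anchors latent TGF-beta in the matrix, read 30.1 FPKM in BM1 and 4.9 in LM2 knockdown cells (-2.40), with 12 and 8.47 in the controls. KYNU, kynureninase of tryptophan breakdown, read 7.32 FPKM in BM1 and 0.961 in LM2 knockdown cells (-2.08), but 0.769 and 4.98 in the controls. ID1, an inhibitor of differentiation and a BMP target named here after its values were seen, read 162 FPKM in BM1 and 64.8 in LM2 knockdown cells (-1.31), but 9.37 and 35 in the controls. For KYNU and ID1 the order of the lines was thus opposite in the pairs. For ID1 both depleted lines stood above both controls, with the wider gap between knockdown and control in BM1. TNC (2.03), IL13RA2 (2.02), CXCL1 (1.51), EREG (1.47) and ADIRF (1.12) were the other members higher in LM2, and MAN1A1 (-1.25) was the other member higher in BM1 beside MMP1. The difference between the pairs was not tested for any of them, because no group has a second library.

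The TGF-beta and BMP pathway held members at both ends. Of 38 compared genes, 7 were at least 2-fold higher in BM1 and 3 in LM2, with a median of 0.05, against 2 and 7 and a median of 0.33 in the control pair. Their share past 2-fold in the knockdown pair was 26.3%, against 9.25% of all genes. Among ligands and their binders, INHBB, an activin subunit, read 18.1 FPKM in BM1 and 3.57 in LM2 knockdown cells (-2.06), with 20.2 and 2.3 in the controls. ID4, another target of BMP signals, read 11.5 FPKM in BM1 and 1.02 in LM2 knockdown cells (-2.63), with 0.606 and 0.624 in the controls. The control lines were thus level for ID4 and the depleted lines were not. Of the target genes higher in LM2, TGFBI, a matrix protein, read 61.8 FPKM in LM2 and 13.3 in BM1 knockdown cells (2.14), with 57.4 and 3.25 in the controls. The 9 compared receptors stayed within 2-fold: TGFBR1 differed by 0.06 and TGFBR2 by -0.72, at 6.84 FPKM in BM1 and 3.76 in LM2 knockdown cells.

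Epithelial genes did not move to one side as a group, with 2 of 19 compared higher in LM2, 3 higher in BM1 and a median of -0.14. Their share past 2-fold was 26.3%, against 9.25% of all genes. The 3 in BM1 were MAL2, KRT19 and CLDN1 (-1.02), a tight-junction claudin. The 2 in LM2 were CDH3 (1.41), P-cadherin, at 2.2 and 0.205 FPKM, and KRT7 (1.27), a keratin of simple epithelia, at 313 FPKM in LM2 and 129 in BM1 knockdown cells. KRT7 overlaps KRT86, which went the other way at -1.27. CDH1, E-cadherin, read 4.08 FPKM in BM1 and 2.3 in LM2 knockdown cells against 0.489 and 0.17 in the controls, so both depleted lines stood above both controls and differed by -0.62. EPCAM read 4.59 and 3.31 FPKM, and KRT8 1181 and 1083.

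Further genes were picked from the 40 highest in BM1 after their values were seen, so their direction was fixed by the choice and they stand for no group. They were SPDEF, a transcription factor of goblet cells (9.8 FPKM in BM1 and 0.135 in LM2 knockdown cells, -3.25), and the trefoil peptides TFF3 (9.25 and 0.329, -2.95) and TFF2 (8.45 and 0.398, -2.76). FOXQ1, a forkhead transcription factor, read 17.7 and 1.67 FPKM (-2.81). Each of the 4 was also at least 2-fold higher in BM1 controls. TSPAN8, a tetraspanin of gastrointestinal epithelium, read 22.3 FPKM in BM1 knockdown cells, 4.41 in BM1 controls, 0.924 in LM2 knockdown cells and 0.0793 in LM2 controls. S100P, a calcium-binding protein, read 11.8, 1.4, 0.918 and 0.414 FPKM in the same order. For TSPAN8 and S100P, as for AGR2 and MAL2, BM1 with hnRNPM depleted was the highest library. TSPAN8 overlaps LGR5 on the other strand. A gene of the secreted cysteine protease inhibitors, CST1, was at 8.17 FPKM in BM1 knockdown cells and 0.145 in LM2, but at 107 in BM1 controls.

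Proteases and their inhibitors were split, with 5 of 20 compared metalloproteinases and TIMPs higher in LM2 and 3 in BM1. Their share past 2-fold was 40%, against 9.25% of all genes. On the LM2 side, ADAM19, a membrane protease that sheds neuregulin, read 23.1 FPKM in LM2 and 2.86 in BM1 knockdown cells (2.64), with 17.6 and 5.04 in the controls. TIMP1 (190 and 81.3 FPKM, 1.21) and TIMP3 (208 and 98.4 FPKM, 1.07), inhibitors named after their values were seen, were also higher in LM2, and for TIMP3 the control lines stood within 2-fold at 152 and 186. MMP14, the membrane collagenase, read 19.5 FPKM in LM2 and 23.4 in BM1 (-0.25).

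Chemokines and cytokines numbered 4 higher in LM2 and 3 in BM1 of 19 compared, a share of 36.8% against 9.25% of all genes. CSF3, the granulocyte growth factor, read 3.33 FPKM in LM2 and 0.105 in BM1 knockdown cells (1.97), with 48.8 and 0.162 in the controls. CXCL1, a neutrophil chemokine, read 3.83 and 0.695 FPKM (1.51), with 9.55 and 1.61 in the controls. LM2 remained the higher line for both genes, at a lower level than in its control. IL1B (1.42) and IL32 (1.15) were the others in LM2, and IL18 (-1.30) joined CCL2 and IL11 in BM1. CCL5 was under the minimum mean, at 0.39 FPKM in BM1 and 0.43 in LM2.

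In further groups the share past 2-fold ran from 9.52% (HLA and antigen presentation) to 44.4% (EGF receptor family and ligands), against 9.25% of all genes. EGFR read 80.6 FPKM in BM1 and 31.4 in LM2 knockdown cells (-1.33), with 51 and 35.4 in the controls, and NRG1, a ligand of its relatives, was also higher in BM1 (-1.4). The EGFR ligands EREG (1.47) and HBEGF (1.46) were higher in LM2, so of 9 compared members of the family 2 went each way. Of 20 SRF and YAP target genes, 3 were higher in LM2 and 1 in BM1. ANKRD1, a target of YAP, read 761 FPKM in BM1 and 240 in LM2 (-1.66), with 165 and 56.2 in the controls. The cytoskeletal genes TAGLN (1.73), MYL9 (1.28) and CNN2 (1.28) were higher in LM2. Of 38 interferon-response genes, 5 were higher in BM1, among them the RNA sensor OAS1 (-1.60) and OASL (-1.31) and IFIT2 (-1.24), and 1 in LM2, HERC6 (1.17). Of 21 HLA and antigen presentation genes, 2 were higher in LM2 and 0 in BM1, a share near the 9.25% of all genes. CD74, the invariant chain of MHC class II, read 50.7 FPKM in LM2 and 15.9 in BM1 (1.61), with 108 and 23.2 in the controls, and CIITA, the class II transactivator, differed by 1.21. Of 30 glycolysis and hypoxia genes, the carbonic anhydrases CA12 (2.39) and CA9 (1.51) and the aldolase ALDOC (1.63) were higher in LM2, and hexokinase HK2 (-1.76) and the glucose transporter SLC2A1 (-1.02) in BM1.

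Housekeeping groups stayed near the median of all genes, with 2.60% to 4.76% of members past 2-fold against 9.25% of all genes. Of 77 ribosomal protein genes, 2 were past 2-fold, RPL7A (1.10) and RPL35 (1.05), both higher in LM2 and both on chromosome 9, and the median was 0.08. Neither stayed past 2-fold with the median of each chromosome subtracted (0.62 and 0.57). Of 30 proliferation genes, 1 was past 2-fold, RRM2, a ribonucleotide reductase subunit, at -1.21 (-0.94 with the median of each chromosome subtracted), and the median was 0.00. Other hnRNP and splicing regulators had 2 of 42 past 2-fold, both higher in BM1, with a median of -0.09. They were RBM47 (-1.06, or -0.97 after quantile normalization), an epithelial splicing factor, and HNRNPH2. HNRNPH2 read 49.9 FPKM in BM1 and 7.35 in LM2 knockdown cells (-2.61) and 0.505 and 49.1 in the controls. Its locus is shared with the readthrough entry RPL36A-HNRNPH2, so the division of fragments is uncertain.

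The knockdown pair and the control pair share no library. Across the 13767 genes their differences correlated with Pearson's r of 0.546 and Spearman's rho of 0.473, a description across genes, which are not independent replicates. The controls stood at least 2-fold apart at 1623 of the same genes (11.8%), 942 higher in LM2 (6.84%) and 681 higher in BM1 (4.95%). Of the 619 genes higher in LM2 after depletion, 273 were also at least 2-fold higher in LM2 controls, which is 44.1% of the knockdown set and 28.98% of the control set. Of the 654 higher in BM1, 227 were shared, 34.7% of the knockdown set and 33.3% of the control set. In total 500 genes (3.63% of those compared) separated the lines the same way in both pairs, among them SPARC, FKBP10, CCL2 and KRT19. The sign was the same in the control pair for 545 of the 619 and 530 of the 654. Of all genes compared, 52.6% were higher in LM2 in the control pair. The control lines stood within 1.25-fold of each other for 93 of the 619 and 154 of the 654, ID4 among the latter. The share of all genes within 1.25-fold is not given here, so these counts only describe the sets. In opposite directions, 29 genes were at least 2-fold apart in both pairs.

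**Figure D4:**
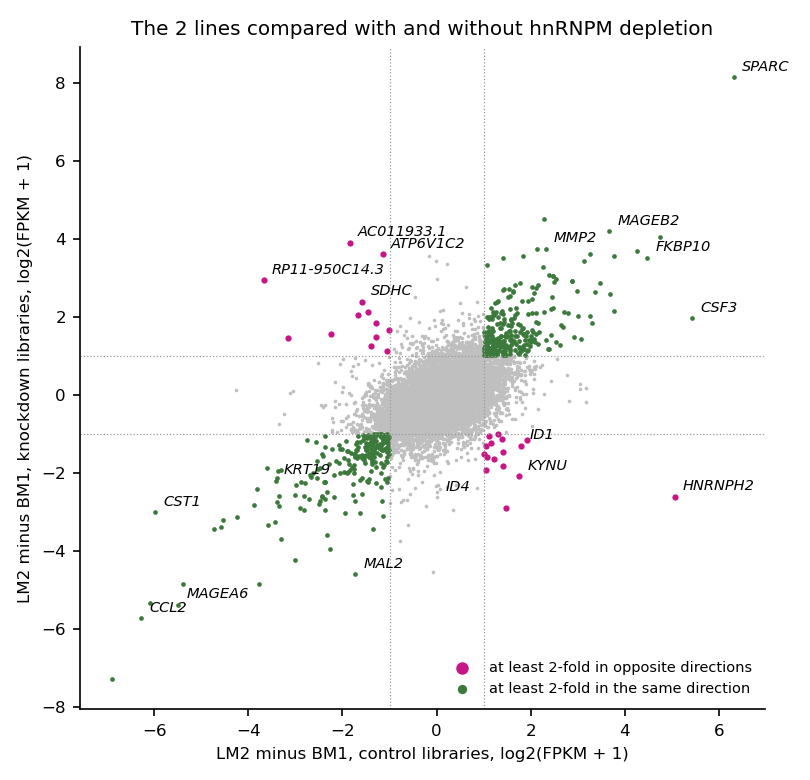
Difference between LM2 and BM1 controls (x axis) and between LM2 and BM1 knockdown cells (y axis), both on the log2(FPKM + 1) scale, 1 point per compared gene, with genes at least 2-fold apart the same way in both pairs in green and those in opposite ways in magenta. SPARC and CCL2 lie far out along the diagonal in opposite directions, and KYNU, ID1 and HNRNPH2 lie below 0 on the y axis and above 0 on the x axis.

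Genes higher in LM2 were not spread evenly over the genome. Chromosome 9 held 529 of the compared genes (3.84%) but 89 of the 619 genes at least 2-fold higher in LM2 (14.4%), and 13 of the 654 higher in BM1. Its median difference was 0.48 after depletion and 0.56 between controls, and 78.4% of its genes were higher in LM2, against 45.2% of all genes. From the start to the end of the chromosome the medians of its 4 equal parts by gene order were 0.03, 0.52, 0.64 and 0.74, with control values of 0.12, 0.61, 0.73 and 0.66. The first part was level in both pairs and the other parts were not. TNC, PAPPA, PAPPA-AS1 and TRIM32 formed a run of 4 neighbours there, ASS1, the arginine-making enzyme argininosuccinate synthase, read 68.4 FPKM in LM2 and 8.23 in BM1 knockdown cells, and MAMDC2 read 231 and 18.6. These genes were named after their values were seen. SNORD36A, RPL7A and RPL35 lie on the same chromosome.

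Chromosome 18 lay on the BM1 side after depletion. Its 212 genes (1.54%) held 33 genes at least 2-fold higher in BM1 and 6 higher in LM2, with a median of -0.50 after depletion and -0.21 between controls. The medians of its 4 parts were -0.64, -0.44, -0.43 and -0.55 after depletion and -0.36, 0.18, -0.23 and -0.26 between controls, so the second part was on the LM2 side in the controls. A run of 5 neighbours from RAB27B to TXNL1 was higher in BM1, and TXNL1, a thioredoxin-like protein of the proteasome, read 28.95 FPKM in BM1 and 6.62 in LM2 knockdown cells. RAB27B, which docks secretory vesicles, read 13.8 and 1.80 FPKM, but 1.87 and 2.01 in the controls. CTD-2354A18.1, the gene highest in BM1, lies on chromosome 18 as well. The last of 4 parts of chromosome 15 (78857862 to 102516746) had a median of 0.69 over 112 genes, with 30 higher in LM2 and 0 in BM1, and the second part of the X chromosome a median of 0.46 with 26 and 2. Of the 8 parts with medians of -0.4 or lower, 4 were those of chromosome 18. The others were the first (-0.46, with 31 genes higher in BM1) and second (-0.44, with 22) parts of chromosome 2, the second part of chromosome 6 (-0.45, with 18) and the third part of chromosome 12 (-0.40, with 27). The control medians of these 4 were -0.26, -0.33, -0.57 and -0.03. Over the 92 chromosome parts the medians of the knockdown and control pairs correlated with a Pearson's r of 0.777, given as a description. DNA copy number was not measured in these files, and its part in these regional differences was not tested. With the median of each chromosome subtracted, an alternative chosen after seeing the data, 618 genes were higher in LM2 and 548 in BM1, of which 531 and 513 were among the original sets.

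**Figure D5:**
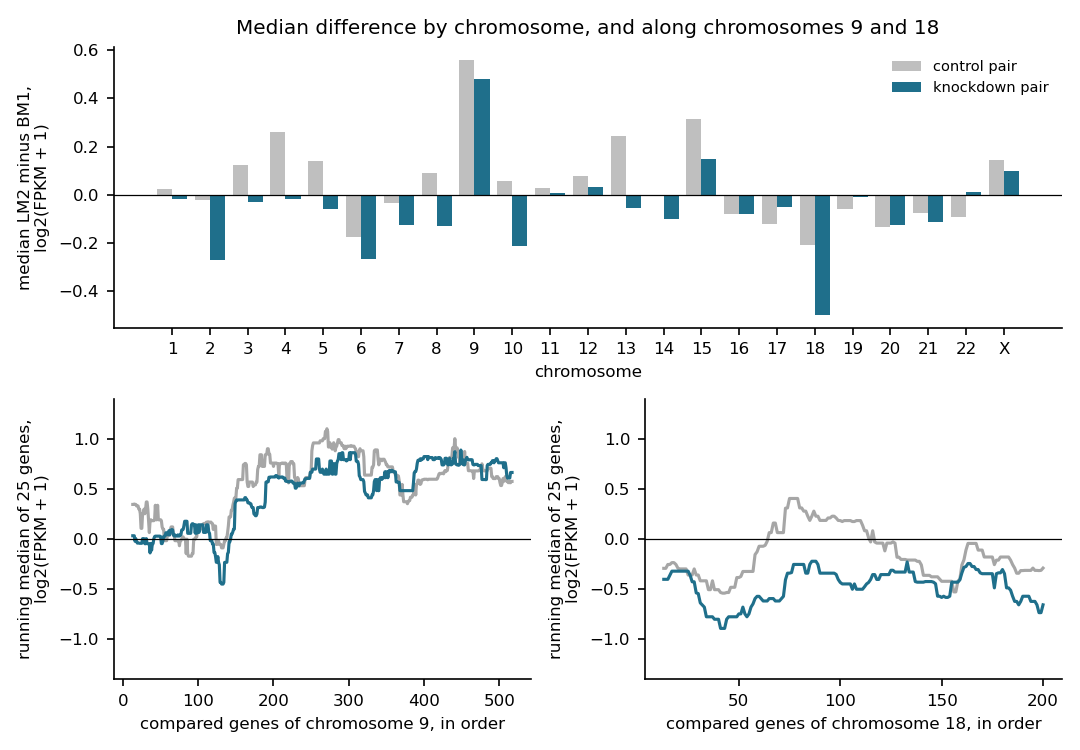
Median difference between LM2 and BM1 on the log2(FPKM + 1) scale by chromosome for the knockdown and control pairs, with the running median of 25 genes in gene order along chromosomes 9 and 18. Chromosome 9 has medians above 0 in both pairs (0.48 and 0.56), although both of its lines run near or below 0 along part of the chromosome. Chromosome 18 has medians below 0 in both (-0.50 and -0.21), although its control line rises above 0 along part of the chromosome.

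The 4 libraries summed to between 434567 and 455114 FPKM. Low values spaced like whole fragments gave estimated depths of 22782327 fragments for BM1 knockdown and 27259037 for LM2 knockdown, and 31227062 and 41483058 for their controls. These depths were inferred from low values in 1623 genes. Of the values small enough to be used, 36.6% to 45.0% came within 0.02 of a whole fragment, so no count test was run. At these depths 1 fragment on a transcript of 1 kilobase is worth 0.0439 FPKM in BM1 knockdown cells and 0.0367 in LM2 knockdown cells. Levels near that size, such as CADM1 in BM1 or CTD-2354A18.1 in LM2, rest on few fragments, and the size of their ratio is poorly fixed. Mitochondrial genes took 12.8% of all FPKM in BM1 knockdown and 11.8% in LM2 knockdown cells, against 9.31% and 8.80% in the controls. Just inside and outside the 2-fold rule, differences ran from 1.0003 to 1.0075 and from 0.9985 to 0.9996 on the LM2 side, so SERPINH1 or TGFB3 is inside by a margin that has no replicate behind it.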

How the data were processed

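Gene expression was measured by RNA-seq in 4 libraries of MDA-MB-231 derivatives, and the 2 hnRNPM knockdown libraries were compared. The authors deposited 1 table of FPKM per gene, whose values are already scaled for gene length and library size. STAR 2.5.3a, Cuffdiff 2.2.1 and GRCh37 are named in the submitters' processing notes, without their roles. Groups came from the sample labels, 0 per-sample columns were left unused, and 40 of 20369 entries with 3 repeated gene IDs were dropped, leaving 20329 genes. Genes with a mean of at least 1 FPKM over the knockdown libraries were kept, a pseudocount of 1 was added before log2, and at least 2-fold was the rule for a difference, with no test because each side has 1 library. The computation used Python 3.11.15, pandas 2.3.3 and numpy 2.4.6 and was tested on simulated data. Gene types came from GENCODE 29 by gene ID, and promoters from RefSeq (GRCh38.p14) by symbol. The comparison and the 32 gene lists were chosen with earlier results of these data known. Named were HNRNPM, ESRP1, ESRP2, CD44, VIM and CDH1, the 4 identity markers, the 10 genes highest in each line, the 4 members of each list farthest from 0, the 5 in each direction least like the control pair and the 5 nearest each side of the 2-fold rule; other genes were picked after their values were seen. A few items that the rule names are not reported here. The alternatives were other pseudocounts, filters, scalings and fold rules, and leaving out overlapping genes.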

Additional observations from a re-analysis of the deposited data

Results flagged for a closer look

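These genes were at least 2-fold apart in opposite directions in the knockdown pair and in the control pair, on the log2(FPKM + 1) scale. Each is 1 library against 1 library, and the difference between the pairs was not tested. KYNU was -2.08 in the knockdown pair and 1.76 in the control pair, ID1 was -1.31 and 1.79, and HNRNPH2 was -2.61 and 5.06. SDHC, a subunit of succinate dehydrogenase, was 2.39 and -1.58, with 57 FPKM in LM2 and 10.1 in BM1 knockdown cells and 13.6 and 42.6 in the controls. ATP6V1C2, a subunit of the vacuolar proton pump that overlaps PDIA6 on the other strand, was 3.60 and -1.14, and its lowest library by far was BM1 knockdown at 1.24 FPKM against 21.5 to 48.7 in the others. AC011933.1, inside GRB2, was 3.90 and -1.84. RP11-950C14.3, antisense to EIF2B2, was 2.94 and -3.68, and RP11-463I20.1, antisense to ZNF770, was -2.91 and 1.47. The readthrough entry TMEM256-PLSCR3 was 1.45 and -3.17. PRR7, just inside the 2-fold rule, was -1.0004 and 1.31, and it overlaps PRR7-AS1. Of these 10 genes, all but KYNU and ID1 overlap another entry of the table, and the division of fragments there is uncertain. Over all compared genes, 55.4% overlap another entry. The 10 are part of the 29 genes at least 2-fold apart in opposite directions, and overlap among the 29 is not given here.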

How the results depend on the processing

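With 1 library a side, leaving out a replicate was not possible. No paired analysis was possible because the labels give no replicate numbers and each group has 1 library. The counts of 619 genes higher in LM2 and 654 higher in BM1 became 1745 and 2117 with a 1.5-fold rule, and 307 and 321 with overlapping genes left out. Overlapping genes made up 55.4% of all compared genes, 50.4% of the 619 and 50.9% of the 654. Leaving them out thus also removed most of the genes compared, and the lower counts are not a lower share. With a mean of at least 5 FPKM, which also left fewer genes to compare, 384 were higher in BM1, and with a pseudocount of 0.1, 1075 were. The other settings stayed within 1.5 times of both counts. They included size factors (707 and 562), quantile normalization (695 and 569), rescaling without mitochondrial genes (764 and 951), and 2 settings chosen after seeing the data, each chromosome's median removed (618 and 548) and chromosomes 9 and 18 left out (524 and 608). The rescaling also raised every value against the pseudocount of 1, so its counts do not isolate mitochondrial content. A pseudocount of 0.5 alone gave 755 and 860. The median of the HOX genes, 0.32 over 2 genes, turned to -0.14 without the filter on low values, where more genes entered. No gene named by the rule and at least 2-fold apart changed direction under any setting that kept it. For named genes within 2-fold, changes of sign near 0 were not counted. Up to 9 named genes lost and up to 14 gained the 2-fold side under a single setting. Depth limits genes with few fragments in 1 line, whose differences depend on the pseudocount.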

Other observations

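A few genes among the 40 highest in each line are given here as single values, picked after their values were seen. CTSB, the lysosomal protease cathepsin B, read 145 FPKM in LM2 and 16.6 in BM1 knockdown cells (3.05), with 177 and 31 in the controls. PRNP, the prion protein gene, read 80.0 and 7.05 FPKM (3.33), with 98.8 and 46.7 in the controls. BM1 with hnRNPM depleted was the lowest library for both. PAPPA, a protease that releases insulin-like growth factors, differed by 3.04, and S100A2, a calcium-binding protein, by 2.97. In the opposite direction, SOCS2, a suppressor of cytokine signalling, read 45.5 FPKM in BM1 and 5.48 in LM2 knockdown cells (-2.84), while the controls stood at 12.6 and 10.6. SPANXA1 and SPANXA2, near-identical cancer-testis copies whose fragments may be divided, were also higher in BM1 (-3.43 and -3.21), as was SSX1 (-2.83). The XAGE1 copies of the X chromosome, which are not among the 40 highest, were higher in LM2 (XAGE1A, 1.21).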
